A study of Mus musculus with 2 samples.

Results

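The type I interferon response genes examined here were a list of 35 genes that interferon alpha and beta induce in most cells, listed by name as a functional group. The count tables listed 32285 genes and held 33 of the 35 members, and Mx1 and Mx2 were not analysed here. The members were measured in 2 single-cell RNA-seq libraries of intestinal epithelial cells from mice, 1 from MG53-TG mice and 1 from their wild type littermates (WT). MG53-TG mice overexpress MG53 (TRIM72, a membrane repair protein encoded by Trim72) in the whole body, and the WT mice lack the transgene. Mice of both genotypes drank 2.5% dextran sulfate sodium (DSS), which injures the gut lining, and cells were taken on day 7, so no untreated group was compared. Cells from dissociated crypts were sorted as EpCAM positive and 7-AAD negative before droplet capture. The labels give neither the age of the mice nor their number. The published description of this experiment names several mice per genotype, and the cells of a library carry no record of the mouse they came from. With 1 library per genotype there was no replicate of either, so no test between genotypes was possible. Genotype, library, program version and mouse cannot be told apart.

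Type I interferons are secreted proteins that bind the receptor IFNAR1 and IFNAR2 and signal through the kinases JAK1 and TYK2 to transcription factors, among them STAT2 and IRF9, which bind a DNA element in the promoters of induced genes. Type III interferons use another receptor, IFNLR1 and IL10RB, which in the gut is found mainly on epithelial cells, and induce largely the same genes. The products include sensors of foreign RNA (Ddx58, which encodes RIG-I, and Ifih1, which encodes MDA5), proteins that block translation or degrade RNA (the Ifit and Oas families, Eif2ak2), a protein tag (Isg15) and the transcription factor Irf7, which amplifies the response.

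After filtering, 6963 WT cells and 4941 MG53-TG cells were kept, with median depths of 14035 and 17950 unique molecular identifiers (UMIs, each standing for 1 captured RNA molecule) per cell. Of these, 6119 WT and 4606 MG53-TG cells were epithelial, and 8 barcodes occurred among the kept cells of both libraries. Trim72, the transgene, was measured at 0.594 UMIs per 1000000 UMIs (CPM) in the epithelial cells of WT and at 50.8 CPM in those of MG53-TG, the direction the labels give. The clusters were given names such as goblet-like from marker genes, which gave 643 WT and 307 MG53-TG stem-like, 566 and 363 cycling-like, 1401 and 709 absorptive progenitor-like, 917 and 642 enterocyte-like, 1501 and 1727 goblet-like, 260 and 133 Paneth-like, 231 and 285 tuft-like and 286 and 181 enteroendocrine-like cells. The marker genes bore most names out, with Muc2 at 12088 CPM (WT) and 10968 CPM (MG53-TG) in goblet-like cells against 834 and 907 CPM in all other epithelial cells, and Dclk1 at 1735 and 1622 CPM in tuft-like cells against 2.01 and 0.861 CPM. The stem-like name was less clear, since the leading genes of that cluster were Olfm4 and, beside it, DNA replication genes (Mcm3, Mcm4, Mcm6 and Mcm2) and the member Ifitm3, and Lgr5, the marker of crypt stem cells, had 9.71 (WT) and 26.4 CPM (MG53-TG) there against 3.12 and 4.50 CPM in all other epithelial cells. The gate let other cells through, since 643 WT and 251 MG53-TG cells formed a T or innate lymphoid-like cluster. In bulk sums of this kind, fewer cells with a gene and less RNA per cell cannot be told apart, which is why shares of cells are given beside the sums. All intervals are 95% intervals for counting error only, and they leave out the spread between mice and libraries.

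Many members share a motif in the promoter. Windows of 250 bases before to 50 bases after the start site were read from the RefSeq promoter table (GRCm38.p6) for 26 of the 33 members, and searched on both strands for GAAANNGAA, the core of the interferon-stimulated response element, where matches may overlap. The motif was found in 15 of the 26 members (57.7%) and in 2638 of 27025 genes of the whole table (9.76%). There were 2 or more matches in 10 members (38.5%) and in 199 genes of the table (0.736%). The 120 bases before the start site are given here for 3 members with matches there (Isg15, Ifit1 and Ddx60), for Irf7, and for Ifitm3 and Lgals3bp, the members with the most UMIs, which had another pattern across cell types, with each match in capitals, including its reverse complement TTCNNTTTC. The stretches lie at chr4:156200819-156200938 (minus strand), chr19:34640769-34640888 (plus strand), chr8:61927967-61928086 (plus strand), chr7:141266425-141266544 (minus strand), chr7:141010745-141010864 (minus strand) and chr11:118401960-118402079 (minus strand), and are written 5′ to 3′ in the direction of the gene.
Isg15: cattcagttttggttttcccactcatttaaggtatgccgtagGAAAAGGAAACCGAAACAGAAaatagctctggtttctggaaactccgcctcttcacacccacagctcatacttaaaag
Ifit1: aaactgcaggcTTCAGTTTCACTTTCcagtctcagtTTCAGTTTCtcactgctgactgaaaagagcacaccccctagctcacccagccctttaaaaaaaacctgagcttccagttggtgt
Ddx60: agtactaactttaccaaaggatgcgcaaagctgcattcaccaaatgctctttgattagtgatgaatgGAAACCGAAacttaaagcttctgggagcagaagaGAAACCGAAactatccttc
Irf7: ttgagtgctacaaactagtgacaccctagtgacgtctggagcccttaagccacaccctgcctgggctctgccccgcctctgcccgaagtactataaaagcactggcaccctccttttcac
Ifitm3: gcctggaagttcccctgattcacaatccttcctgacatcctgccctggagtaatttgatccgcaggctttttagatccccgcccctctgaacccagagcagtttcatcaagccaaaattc
Lgals3bp: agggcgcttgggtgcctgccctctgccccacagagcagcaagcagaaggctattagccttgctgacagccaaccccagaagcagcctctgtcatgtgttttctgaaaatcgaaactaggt
Isg15 held 3 overlapping matches in 1 run, Ifit1 held 3 on the other strand, and Ddx60 held 2 that stand apart. No match lay in the stretches of Irf7, Ifitm3 and Lgals3bp. The window of Ifitm3 held 2 matches, the first 2 bases after the start site. A match is a description of these letters and not a bound site.

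The members were not spread evenly over the epithelium. Most were lowest in stem-like, cycling-like and Paneth-like cells and highest in enterocyte-like cells (absorptive cells of the villus) or tuft-like cells (chemosensory cells). The type with the highest level was enterocyte-like for 17 members in WT and 20 in MG53-TG, tuft-like for 13 and 10, and the same in both libraries for 30 of 33 members. Isg15, Ifit2 and Rsad2 were the exceptions, with tuft-like cells highest in WT and enterocyte-like cells in MG53-TG. Ifit2 rests on few UMIs, with 4.97 CPM (WT) and 0.249 CPM (MG53-TG) in tuft-like cells. The WT tuft-like sums also held T-cell transcripts, as given below. Isg15 had 6.61 CPM in stem-like, 46.6 CPM in enterocyte-like and 67.3 CPM in tuft-like cells of WT, and 5.72, 110 and 90.0 CPM in the same types of MG53-TG.

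**Figure D1:**
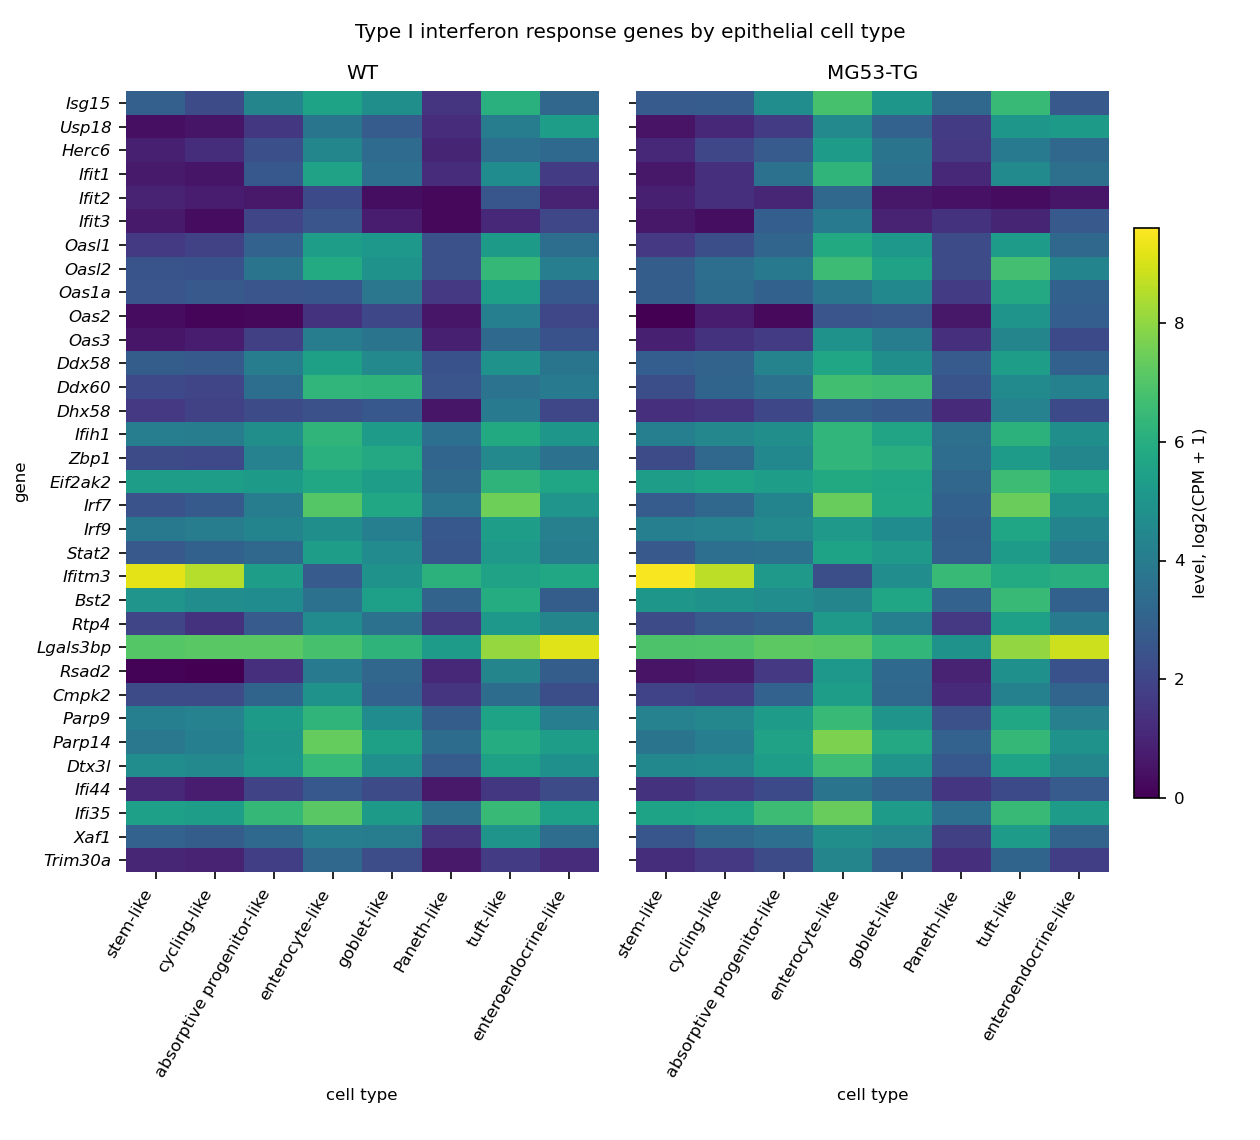
Level of each of the 33 members as log2(CPM + 1) (colour) in 8 epithelial cell types (columns) of the WT (left) and MG53-TG (right) libraries, with genes ordered by role. Most rows are brightest under enterocyte-like or tuft-like cells, whereas Ifitm3 is brightest under stem-like cells (596 and 726 CPM) and Lgals3bp under enteroendocrine-like cells (558 and 465 CPM).

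The same contrast was counted over the list. Against stem-like cells, 27 of 32 members with enough UMIs were at least 1.5-fold higher in enterocyte-like cells in both libraries, where 25.8% of all genes were, and 2 were lower (39.6% of all genes). The median log2 ratio of the members was 2.86 (WT) and 3.33 (MG53-TG), and over all genes it was -0.30 and -0.28. The 2 lower members were Ifitm3 and Bst2, and Oas1a, Eif2ak2 and Lgals3bp passed neither bound.

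Tuft-like cells gave a similar count, with 27 of 28 members higher than in stem-like cells (26.7% of all genes) and 1 lower (24.1%). In goblet-like cells, the mucus-secreting type, 23 of 31 were higher (20.1% of all genes) and 1 was lower (33.1%). In absorptive progenitor-like cells 23 of 31 were higher (13.8%) and 1 lower (27.2%). Ifitm3 was the lower member in each of these 3 types.

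Enteroendocrine-like cells, which secrete hormones, had 11 of 23 members higher, a share close to the 39.4% of all genes, and 2 lower (17.4%). Paneth-like cells, which secrete antimicrobial peptides, had 2 of 21 members higher (3.47% of all genes) and 11 lower (84.0%). The median log2 ratio over all genes was -1.83 (WT) and -1.87 (MG53-TG) in this type, so most genes had a lower CPM there. Defa24, a defensin, alone had 303126 CPM in WT Paneth-like cells, and its part in the low values was not tested.

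The Irf7 level followed the common pattern. Irf7, the transcription factor that amplifies interferon production, had 4.54 CPM (WT) and 5.99 CPM (MG53-TG) in stem-like cells, 132 and 163 CPM in enterocyte-like cells and 176 and 168 CPM in tuft-like cells. Enterocyte-like cells had the highest levels of Parp14, an ADP-ribosyltransferase, with 159 (WT) and 206 CPM (MG53-TG) against 13.5 and 11.8 CPM in stem-like cells. Ddx60, a helicase that acts with RIG-I, was shared by enterocyte-like cells (79.5 and 101 CPM) and goblet-like cells (74.7 and 95.4 CPM) and was at 11.5 and 22.9 CPM in tuft-like cells.

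Oas2, Oas1a and Oasl2, by contrast, leaned to tuft-like cells. Oas2, which makes the messenger that activates RNase L, had 16.8 CPM (WT) and 30.6 CPM (MG53-TG) there against 1.68 and 4.73 CPM in enterocyte-like cells. Oas1a, of the same enzyme family, had 41.3 and 54.9 CPM there against 4.92 and 12.6 CPM. Oasl2, a relative, had 83.8 and 106 CPM in tuft-like against 57.3 and 94.1 CPM in enterocyte-like cells. The WT tuft-like sums also held T-cell transcripts. Of 11 T or innate lymphoid markers, Ptprc, which is also known in tuft cells, had 214 (WT) and 260 CPM (MG53-TG) in tuft-like cells. The other 10 markers summed to 372 and 8.70 CPM there, and to 58.8 and 47.5 CPM in enterocyte-like cells. The part of the lymphoid transcripts in the tuft-like values of WT was not tested.

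Ifitm3, Lgals3bp, Usp18 and Eif2ak2 had patterns of their own. Ifitm3, a membrane protein that blocks the entry of viruses, had 596 CPM (WT) and 726 CPM (MG53-TG) in stem-like cells, 365 and 403 CPM in cycling-like cells and only 5.83 and 3.98 CPM in enterocyte-like cells. Stem-like cells, the lowest type for Irf7, were thus the highest for Ifitm3, and enterocyte-like cells were its lowest. Lgals3bp, a secreted glycoprotein, was highest in enteroendocrine-like cells, with 558 and 465 CPM, and had 134 and 119 CPM in stem-like cells. Usp18, the protease that removes ISG15 and dampens receptor signalling, was also highest in enteroendocrine-like cells (39.7 and 36.5 CPM), followed by tuft-like cells (15.3 and 33.1 CPM). Eif2ak2, the kinase PKR, varied least among types outside Paneth-like cells, from 36.4 to 74.6 CPM in WT and from 40.8 to 95.2 CPM in MG53-TG.

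Ifitm3 and Lgals3bp took 36.0% of the members' UMIs in WT epithelial cells and 26.4% in MG53-TG, so these 2 weigh heavily in a sum over the list. Sums are therefore given for the other 31 members, a choice made after the values were seen. The 31-member sum was 262 (WT) and 271 CPM (MG53-TG) in stem-like cells. It was 124 and 131 CPM in Paneth-like, 253 and 327 CPM in cycling-like, 454 and 531 CPM in absorptive progenitor-like, and 464 and 455 CPM in enteroendocrine-like cells. Goblet-like cells had 695 and 859 CPM, tuft-like cells 1165 and 1446 CPM, and enterocyte-like cells 1346 and 1823 CPM. The order was the same in both libraries except that cycling-like and stem-like cells changed places, as did enteroendocrine-like and absorptive progenitor-like cells.

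The sum also differed between clusters of 1 type. Among absorptive cells it climbed from cluster 5, led by Gsdmc4 (304 CPM, WT, and 307 CPM, MG53-TG), over cluster 10, led by Cyp4a10 (388 and 428 CPM), and cluster 8, led by Sult6b2 (574 and 617 CPM), to cluster 17, led by Fabp6 (857 and 1180 CPM). The enterocyte-like clusters continued the order, with cluster 11, led by Cyp3a11, at 997 and 1199 CPM, cluster 6, led by Plb1, at 1513 and 2282 CPM, and cluster 14, led by Saa1 and the ileal bile acid transporter Slc10a2, at 2302 and 4157 CPM. Irf7 alone went from 6.83 CPM (WT) and 6.97 CPM (MG53-TG) in cluster 5 to 367 and 686 CPM in cluster 14.

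Goblet-like cells showed a similar range. Cluster 1, led by Agr2, had 460 and 562 CPM, cluster 0, led by Mptx1, had 683 and 884 CPM, and cluster 7, led by Ido1, had 1332 and 1670 CPM. Cluster 19, a small goblet-like cluster whose leading genes include Tmprss15, Slc5a12, Xdh and Pck1, known from absorptive cells, had 619 and 843 CPM. The tuft-like clusters, 13 (led by Nrgn) and 20 (led by Nrep), had 1340 and 806 CPM in WT, and 1851 and 599 CPM in MG53-TG. The order of the clusters was therefore alike in both libraries in these 3 groups, while the size of the difference between libraries was not the same in each cluster.

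**Figure D2:**
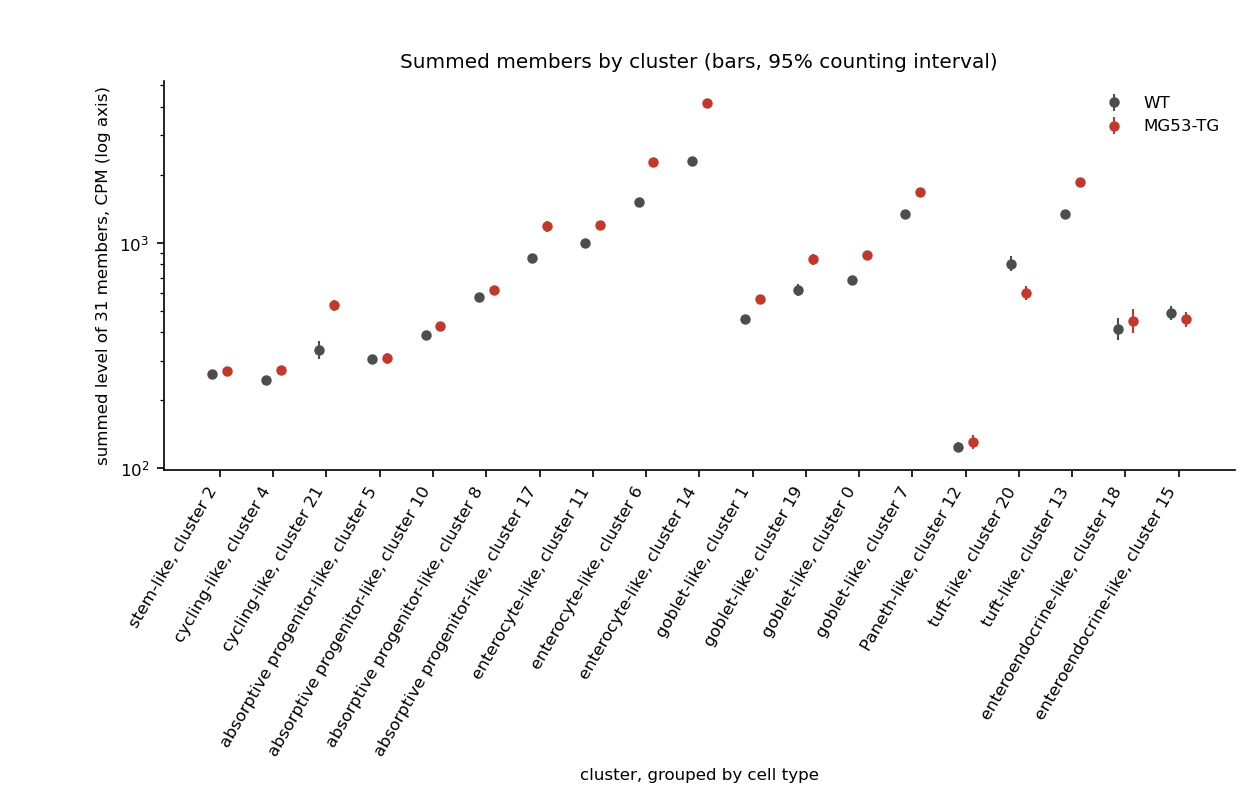
Summed level of the 31 members without Ifitm3 and Lgals3bp, in CPM on a log axis, in each named epithelial cluster (columns, grouped by type and ordered by the WT value), with WT in grey and MG53-TG in red and bars for the 95% counting interval. Enterocyte-like cluster 14 is highest in both libraries (2302 and 4157 CPM), Paneth-like cluster 12 is lowest (124 and 131 CPM), and in tuft-like cluster 20 the WT value lies above the MG53-TG value.

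Between the libraries, most members were higher in MG53-TG. Over all epithelial cells, 31 of 33 members had a ratio above 1, as did 64.5% of all genes, and 18 of 33 were more than 1.5-fold higher, where 6.80% of all 14656 genes with enough UMIs were. None was 1.5-fold lower (3.0% of all genes). The median log2 ratio of the members was 0.58, against 0.07 over all genes. The 31-member sum was 490 (WT) and 719 CPM (MG53-TG, log2 ratio 0.55, interval 0.54 to 0.57), and the sum of all 33 was 766 and 978 CPM (0.35, 0.34 to 0.37). With each epithelial type given equal weight, 9 of 33 members were past 1.5-fold higher and 0 lower, where 4.14% and 3.94% of all genes were, and the median was 0.30, against 0.03 over all genes.

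**Figure D3:**
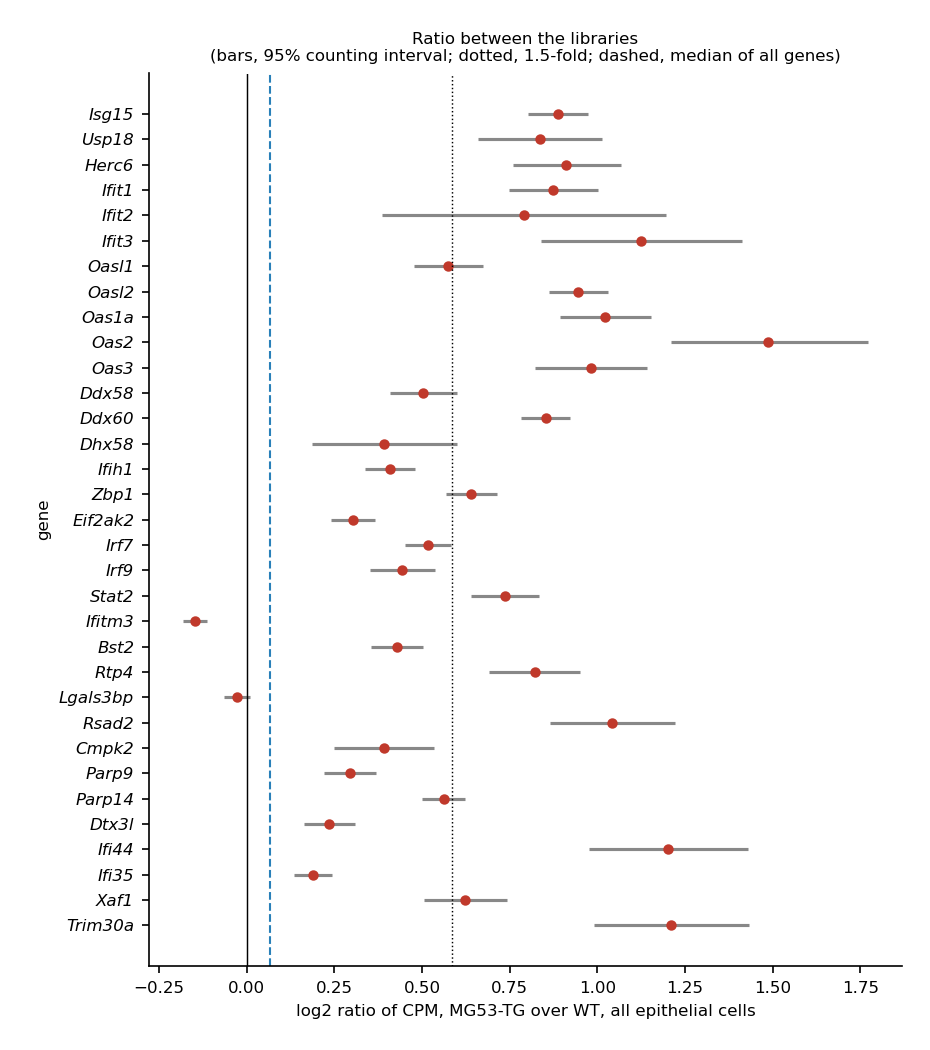
Log2 ratio of CPM, MG53-TG over WT, in all epithelial cells (horizontal axis) for each of the 33 members (rows, ordered by role), with bars for the 95% counting interval. Ifitm3 (-0.15) and Lgals3bp (-0.03) lie left of 0, and 18 members lie right of the dotted 1.5-fold line.

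The 3 genes of the ISG15 system were all past 1.5-fold, the bound that 6.80% of all genes passed. Isg15, the ubiquitin-like tag, had 17.2 (WT) and 31.9 CPM (MG53-TG, log2 ratio 0.89, 0.80 to 0.97). Usp18 had 4.15 and 7.41 CPM (0.84, 0.66 to 1.01), and Herc6, the ligase that attaches the tag in mice, had 5.37 and 10.1 CPM (0.91, 0.76 to 1.07). All 3 were thus higher in MG53-TG by a similar factor, with intervals that overlap.

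The Ifit proteins bind foreign RNA and hinder its translation. Ifit1 had 7.81 (WT) and 14.3 CPM (MG53-TG, log2 ratio 0.87, 0.75 to 1.0). Ifit2 had 0.830 and 1.43 CPM (0.79, 0.39 to 1.20), resting on 88 and 129 UMIs, and Ifit3 had 1.49 and 3.25 CPM (1.12, 0.84 to 1.41). Ifit3 has a near-identical neighbour, Ifit3b, so its count is uncertain.

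Of the Oas family, 4 of 5 members were past 1.5-fold higher, where 6.80% of all genes were. Oas1a had 7.28 (WT) and 14.8 CPM (MG53-TG, log2 ratio 1.02, 0.89 to 1.15), although Oas1g and other close copies may share its reads. Oas2 had 1.42 and 3.99 CPM, the largest ratio among the members (1.49, 1.21 to 1.77), and Oas3 had 4.88 and 9.63 CPM (0.98, 0.82 to 1.14). Oasl2 had 17.7 and 34.1 CPM (0.95, 0.86 to 1.03). Oasl1, which restrains translation of Irf7, had 14.1 and 21.0 CPM (0.57, 0.48 to 0.67), just under 1.5-fold.

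The sensors of nucleic acids were more mixed. Ddx60 had 25.8 (WT) and 46.6 CPM (MG53-TG, log2 ratio 0.85, 0.78 to 0.92), and Zbp1, a sensor that can start cell death, had 24.6 and 38.3 CPM (0.64, 0.57 to 0.71). The other 4 stayed under 1.5-fold. Ddx58 had 15.3 and 21.7 CPM (0.50), and Ifih1 had 28.7 and 38.1 CPM (0.41). Dhx58, a regulator of both sensors, had 3.50 and 4.59 CPM (0.39), and Eif2ak2 had 37.5 and 46.3 CPM (0.30).

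Among the transcription factors, Stat2 was past 1.5-fold, with 13.9 (WT) and 23.2 CPM (MG53-TG, log2 ratio 0.74, 0.64 to 0.83). Its partner Irf9 had 16.8 and 22.9 CPM (0.44, 0.35 to 0.54). Irf7 had 32.7 and 46.7 CPM (0.52, 0.45 to 0.58). All 3 were above the median of all genes. Stat2 was the 1 of the 18 called members that was past 1.5-fold in none of the 8 named types, although its log2 ratio was 0.60 in the unnamed epithelial cluster. Its log2 ratio was 0.57 in goblet-like and in cycling-like cells, 0.21 in enterocyte-like, 0.13 in tuft-like and 0.01 in stem-like cells, so the ratio over all epithelial cells was above that in each named type. Over the 8 named types the same held for Oasl1, Ddx58, Ifih1 and Parp14, none of them past 1.5-fold, but in the unnamed cluster Oasl1 (0.58) and Ddx58 (0.56) were at or above their ratio over all epithelial cells. The libraries held unequal shares of the types, and the part of this in the ratios over all epithelial cells was not tested.

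The membrane and entry group held both exceptions. Ifitm3 had 154 (WT) and 139 CPM (MG53-TG, log2 ratio -0.15, -0.18 to -0.11), while within stem-like cells, where it was highest, it had 596 and 726 CPM, the opposite direction. Lgals3bp had 122 and 120 CPM (-0.03, -0.06 to 0.01). Bst2 (tetherin, which holds budding virus at the membrane) had 26.9 and 36.2 CPM (0.43), and Rtp4, a negative regulator of the response, had 7.67 and 13.5 CPM (0.82).

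The remaining members were all higher in MG53-TG. Rsad2 (viperin, which makes a chain-terminating nucleotide) had 3.88 (WT) and 7.98 CPM (MG53-TG, log2 ratio 1.04), and its neighbour Cmpk2, which supplies the substrate, had 7.24 and 9.51 CPM (0.39). Parp9 and Dtx3l, whose proteins form a complex, had 27.1 and 33.3 CPM (0.30) and 29.7 and 34.9 CPM (0.24). The genes lie side by side and the counting strand is not stated, so reads may be shared between them. Parp14 had 36.9 and 54.5 CPM (0.56). Ifi44 and Trim30a were among the larger ratios, with 2.31 and 5.32 CPM (1.20) and 2.44 and 5.65 CPM (1.21). Xaf1, a protein linked to apoptosis, had 9.86 and 15.2 CPM (0.62), and Ifi35 had 55.1 and 62.8 CPM (0.19). Trim30a has close copies in its cluster on chromosome 7, so its count is uncertain.

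The difference between the libraries was not the same in each type. In enterocyte-like cells 16 of 33 members were past 1.5-fold higher in MG53-TG (4.17% of all genes) and none lower (4.66%), with a median log2 ratio of 0.52 against 0.03 over all genes. Among them, Isg15 had 46.6 (WT) and 110 CPM (MG53-TG), Ifit1 had 45.4 and 76.0 CPM, and Rsad2 had 14.9 and 34.1 CPM. Cells of this type had median depths of 4695 (WT) and 8658 (MG53-TG) UMIs and median mitochondrial shares of 9.32% and 12%, and the part of these in the difference was not tested.

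The enterocyte-like clusters were shared unevenly by the libraries, and most members were higher in MG53-TG within each of them. Cluster 6 held 37.4% of WT and 47.5% of MG53-TG enterocyte-like cells, and 30 of its 31 members with enough UMIs had a log2 ratio above 0, as did 54.9% of all genes there. Past 1.5-fold, 19 were higher and 0 lower (7.23% and 5.12% of all genes). Cluster 11 held 34.6% and 37.2%, with 28 of 31 above 0 (62.2% of all genes), and there 7 were past 1.5-fold higher and 1 lower (5.65% and 3.91%). Cluster 14, where the members were highest, held more of the WT cells (28.0%) than of the MG53-TG cells (15.3%), with 27 of 27 above 0 (45.3% of all genes), 19 past 1.5-fold higher and 0 lower (8.75% and 16.3%). Oasl2 in cluster 14 had 128 (WT) and 315 CPM (MG53-TG).

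In stem-like cells the median member lay close to the median of all genes. There 0 of 23 members were past 1.5-fold higher (3.40% of all genes) and 0 lower (2.64%), the median log2 ratio was 0.04 against 0.03 over all genes, and the 31-member sum differed by 0.04 (-0.04 to 0.12). Paneth-like cells had 2 of 21 higher (8.47% of all genes) and 1 lower (13.1%), with a median of -0.04. Enteroendocrine-like cells had 1 of 20 higher (4.62%) and 1 lower (5.99%), with a median of -0.12. The counting intervals of the 31-member sum included 0 in these 3 types, from -0.05 to 0.21 in Paneth-like and from -0.16 to 0.10 in enteroendocrine-like cells. Those of the sum of all 33, in which Ifitm3 and Lgals3bp weigh heavily, did not. In stem-like cells that sum was 992 (WT) and 1115 CPM (MG53-TG, log2 ratio 0.17, 0.13 to 0.21), and its log2 ratio was 0.10 (0.01 to 0.19) in Paneth-like and -0.12 (-0.21 to -0.04) in enteroendocrine-like cells.

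The other types lay between. In cycling-like cells 10 of 26 members were past 1.5-fold higher (6.42% of all genes), among them Oasl2 (4.34 and 10.1 CPM), Ddx60 (2.98 and 7.59 CPM) and Zbp1 (3.30 and 8.14 CPM), and Cmpk2 was lower (1.87% of all genes). The cycling-like cells formed 2 clusters of unequal share. Cluster 21, led by Mxd3, held 55 of the 566 WT and 97 of the 363 MG53-TG cells, and its 31-member sum was 334 and 527 CPM (log2 ratio 0.66). Cluster 4, led by Hist1h1b, held the rest, with 245 and 273 CPM (0.15). In tuft-like cells 7 of 30 were higher (6.27%) and none lower (3.34%), with a median of 0.34. In goblet-like cells as a whole 5 of 32 were higher (2.23%) and none lower (3.95%), with a median of 0.29 and 31 of 32 above 0 (56.9% of all genes), or 29 of 32 when scaled by the median of ratios, under which Oasl1 and Irf7 lay below 0. In absorptive progenitor-like cells 4 of 32 were higher (3.67%), namely Ifit1, Ifit2, Ifit3 and Trim30a, and none lower (4.71%), with a median of 0.20. The clusters of this type were also unequally shared, since cluster 5, the lowest in the members, held a share of 38.0% in WT but 22.7% in MG53-TG, and cluster 8 held 24.8% and 41.3%. Within cluster 5, 1 of 22 members was past 1.5-fold higher and 4 were lower, where 4.74% of all genes were higher and 4.74% lower. Within cluster 8, 3 of 30 were higher and 0 lower (4.47% and 3.39% of all genes), and within cluster 10, 4 of 26 were higher and 0 lower (4.51% and 3.41%). Cluster 17, the highest of this type in the members, had 11 of 29 higher and 0 lower (8.1% and 6.07%).

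The goblet-like clusters were shared unevenly too, and the counts differed between them. Cluster 0 took 38.4% (WT) and 50.5% (MG53-TG) of the goblet-like cells, with 13 of 31 members past 1.5-fold higher and 0 lower (3.36% and 2.5% of all genes). Cluster 1 took 31.3% and 28.3%, with 5 of 31 higher and 2 lower (2.72% and 4.32%), and there 23 of 31 were above 0 (52.5% of all genes). Cluster 7 took 23.9% and 16.7%, with 4 of 30 higher and 0 lower (7.54% and 4.57%), and cluster 19 took 6.40% and 4.52%, with 9 of 24 higher and 0 lower (5.82% and 6.37%).

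Within the tuft-like cells the clusters went opposite ways. In cluster 13, which held 70.6% of WT and 67.7% of MG53-TG tuft-like cells, 27 of 30 members were above 0 (58.2% of all genes) and Isg15 had 70.5 (WT) and 125 CPM (MG53-TG). In cluster 20, 6 of 20 were above 0 (55.7% of all genes) and Isg15 had 60.9 and 17.7 CPM, on 52 and 23 UMIs. This is a comparison of small groups of cells from 1 library each and was not tested. The sum over all tuft-like cells also depended on which cells were kept. With no UMI of any of the 11 T-cell markers, 71 WT and 89 MG53-TG cells were left, and the 31-member sum was 796 (733 to 864) and 670 CPM (624 to 719), the opposite direction to that of all tuft-like cells (1165 and 1446 CPM). Cluster 20, the lower in the members, made up 54.9% (WT) and 83.1% (MG53-TG) of those cells, against 29.4% and 32.3% of all tuft-like cells, and within them cluster 13 had 890 and 1305 CPM and cluster 20 had 734 and 550 CPM. With Ptprc left out of the markers, a choice made after the values were seen, 188 and 253 cells were left and the sum was 1159 (1113 to 1206) and 1480 CPM (1440 to 1521).

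Sums do not say whether a few cells carried the members, so the members with a UMI were counted in each cell after all cells had been thinned to 1 depth, the minimum set for a kept cell. At that depth 38.0% of WT and 31.5% of MG53-TG epithelial cells had none of the 33 members, and the highest number in 1 cell was 17 in WT and 16 in MG53-TG. At least 5 members were found in 171 of 6119 WT cells (2.79%, Clopper-Pearson interval 2.40 to 3.24%) and in 243 of 4606 MG53-TG cells (5.28%, 4.65 to 5.96%). The difference was 2.48 percentage points (1.72 to 3.25). Unthinned, the shares were 65.6% and 81.0%, at median depths of 15666 and 18654 UMIs.

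Enterocyte-like cells held 54.4% of the WT cells with 5 or more members and 51.9% of those of MG53-TG, while they made up 15% and 13.9% of the epithelial cells. Of enterocyte-like cells, 10.1% (WT) and 19.6% (MG53-TG) had 5 or more (difference 9.48 points, 5.84 to 13.1). Tuft-like cells had 8.66% and 12.6%, and goblet-like cells 2.47% and 3.65%. The counting interval of the difference in tuft-like cells included 0 (-1.32 to 9.27 points), and that in goblet-like cells reached from 0.000912 to 2.36 points.

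**Figure D4:**
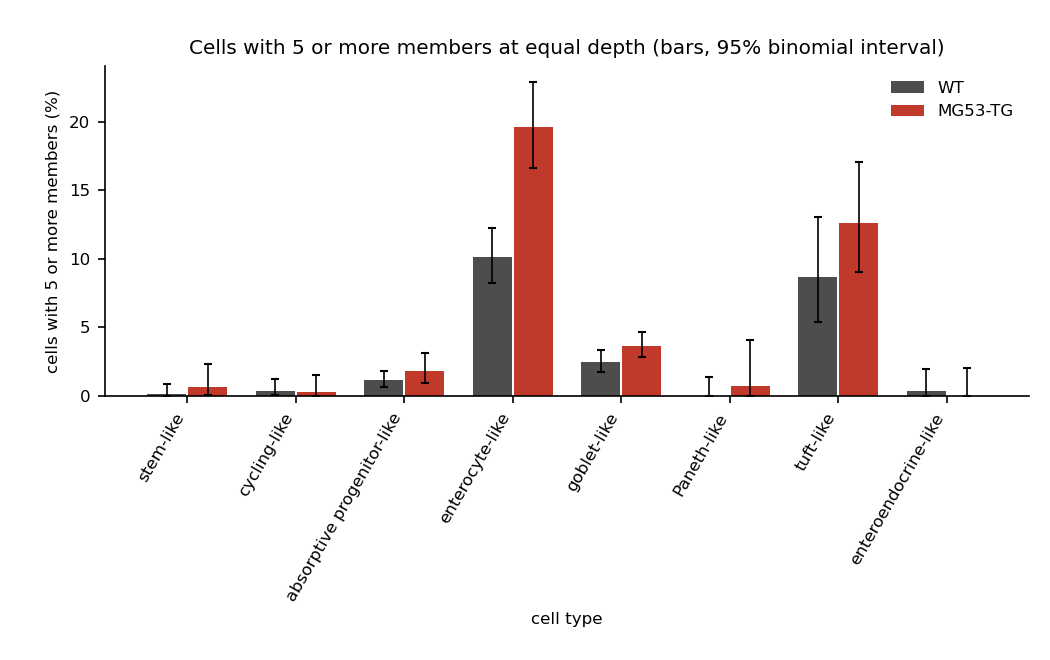
Share of cells (%) with at least 5 of the 33 members at equal depth in 8 epithelial cell types, WT in grey and MG53-TG in red, with bars for the 95% binomial interval. Enterocyte-like cells have the highest shares (10.1% and 19.6%), tuft-like cells follow (8.66% and 12.6%), and stem-like, cycling-like, Paneth-like and enteroendocrine-like cells are near 0.

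The types with low sums also had few such cells. Stem-like cells had 1 of 643 in WT and 2 of 307 in MG53-TG, and cycling-like cells had 2 of 566 and 1 of 363. Paneth-like cells had 0 of 260 in WT, which allows a share of up to 1.15% at 3 counts of the total, and 1 of 133 in MG53-TG. Enteroendocrine-like cells had 1 of 286 in WT and 0 of 181 in MG53-TG, which allows up to 1.66% by the same rule.

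To see whether the members came together in the same cells, the list was split by order into 17 genes that chose cells and 16 that did not, and a cell was chosen when at least 3 of the 17 had a UMI at equal depth. This chose 184 WT epithelial cells (3.01%) and 247 MG53-TG cells (5.36%). Only the 16 held-out genes are then compared, since the other genes fixed the choice. In goblet-like cells, 48 WT and 96 MG53-TG cells were chosen, with median depths of 7884 and 14120 UMIs against 14578 and 18046 UMIs in the other goblet-like cells.

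The held-out genes were higher in the chosen goblet-like cells, by a fold that depended on the gate, as given at the end. Their sum was 1594 CPM in the chosen and 349 CPM in the other cells of WT (4.56-fold, 4.24 to 4.91), and 1328 and 407 CPM in MG53-TG (3.26-fold, 3.10 to 3.43). All 15 held-out genes with enough UMIs were more than 1.5-fold higher in both libraries, where 4.18% of all genes were, and none was lower (5.65%). Ifit1 had 211 CPM in chosen and 5.51 CPM in other WT cells (38.3-fold), and 113 and 6.31 CPM in MG53-TG (17.8-fold). Rsad2 had 163 and 4.29 CPM in WT (38.0-fold) and 83.4 and 5.35 CPM in MG53-TG (15.6-fold). The smallest folds were 1.83 for Bst2 in WT and 1.85 for Lgals3bp in MG53-TG. Of the chosen cells, 47.9% (WT) and 41.7% (MG53-TG) had 2 or more held-out genes at equal depth, against 7.98% and 11.0% of the others.

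Enterocyte-like cells gave a smaller contrast on a higher base. The held-out sum was 1947 CPM in 95 chosen and 707 CPM in the other WT cells (2.76-fold, 2.57 to 2.95), and 2585 CPM in 105 chosen and 835 CPM in the other MG53-TG cells (3.10-fold, 2.95 to 3.25). There 13 of 15 genes were higher in both libraries (6.46% of all genes) and none lower (5.35%). Ifi35 (1.31-fold in WT and 1.33-fold in MG53-TG) and Parp9 (1.30 in WT) were the exceptions. Ifit3 had 16.9 CPM in chosen WT cells and 96.5 CPM in chosen MG53-TG cells, on 9 and 91 UMIs. Without the chosen cells, the median log2 ratio of the members, MG53-TG over WT, was 0.29 in enterocyte-like and 0.26 in goblet-like cells. The 17 genes that chose the removed cells are counted in this median, so no conclusion is drawn from it.

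**Figure D5:**
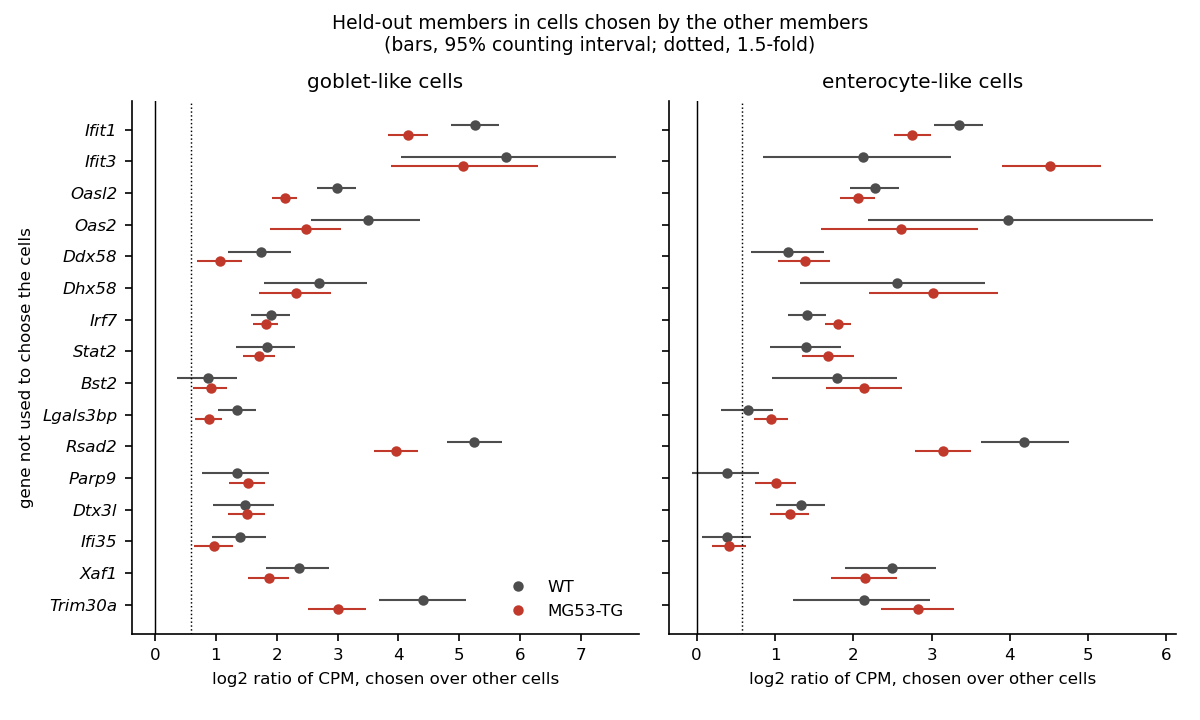
Log2 ratio of CPM in chosen over other cells (horizontal axis) for the 16 members not used to choose the cells, in goblet-like (left) and enterocyte-like cells (right), WT in grey and MG53-TG in red, with bars for the 95% counting interval. Ifit1, Ifit3 and Rsad2 have the largest ratios in goblet-like cells, and Ifi35 stays under 1.5-fold in the enterocyte-like cells of both libraries.

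T-cell transcripts were lower in the chosen than in the other cells of both types, except in MG53-TG goblet-like cells. The 11 T or innate lymphoid markers summed to 13.9 CPM in chosen and 60.0 CPM in other goblet-like cells of WT and to 10.7 and 7.62 CPM in MG53-TG. In enterocyte-like cells they summed to 43.2 and 61.7 CPM in WT and to 21.2 and 52.0 CPM in MG53-TG. Among cells with no UMI of these markers, the held-out fold was 4.71 (WT) and 3.22 (MG53-TG) in goblet-like and 2.61 and 3.01 in enterocyte-like cells. The 12 chosen WT tuft-like cells differed, with 3860 CPM of the 10 markers other than Ptprc against 192 CPM in the other tuft-like cells, so no fold is drawn from them.

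Genes outside the list were also higher in the chosen goblet-like cells. Among the 12 with the largest smaller-of-both ratios were Ifit1bl1, Slfn2, Apol9a, Ido1, Gbp2, Cldn4, Rnf213, Mxd1, Gbp7, Trim12a and Sp100. Ifit1bl1, a relative of Ifit1, had 287 CPM in chosen and 4.63 CPM in other WT cells and 112 and 7.94 CPM in MG53-TG. Gbp2, a GTPase of the interferon gamma response, had 139 and 5.32 CPM in WT and 39.8 and 7.76 CPM in MG53-TG. Ido1, a tryptophan-degrading enzyme, had 474 and 90.4 CPM in WT and 418 and 72.3 CPM in MG53-TG. Slfn2, of the Schlafen family, was 16.2-fold (WT) and 8.50-fold (MG53-TG) higher, Apol9a 6.51-fold and 5.60-fold, Gbp7 7.42-fold and 3.44-fold, and Rnf213, a large ligase, 5.70-fold and 3.91-fold. Trim12a was 3.64-fold and 2.95-fold higher and the nuclear body gene Sp100 2.85-fold and 3.16-fold. Apol9a, Trim12a, Cldn4 and Mxd1 were not on the lists of interferon genes. Cldn4, a tight junction gene, was 4.23-fold and 4.29-fold higher, and Mxd1, which opposes MYC, 4.33-fold and 3.78-fold.

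The chosen cells were not spread evenly over the clusters. Goblet-like cluster 7, a shallow cluster with median depths of 6616 (WT) and 7529 UMIs (MG53-TG), held 62.5% and 44.8% of the chosen goblet-like cells but 23.9% and 16.7% of all goblet-like cells, and Ido1 and Cldn4 are among its leading genes. Within cluster 7, a comparison added after the values were seen, Cldn4 was 1.84-fold (WT) and 1.74-fold (MG53-TG) higher in chosen cells, Mxd1 1.97-fold and 1.55-fold, and Ido1 1.89-fold and 1.57-fold, all smaller than over the whole type. Gbp2 was 15.3-fold and 2.93-fold higher there, and the held-out members 3.67-fold (3.25 to 4.13) and 2.59-fold (2.33 to 2.88). In cluster 0 the held-out fold was 3.55 (WT) and 3.35 (MG53-TG). In cluster 1 it was 8.03 (WT), on 3 chosen cells, and 2.32 (MG53-TG), on 9. Cluster 19 held 0 chosen cells in WT and 6 in MG53-TG, with a fold of 2.42 in MG53-TG.

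The lists were then counted. Of 39 other type I interferon induced genes with enough UMIs, 29 were more than 1.5-fold higher in the chosen goblet-like cells of both libraries and 0 lower, where 4.18% of all genes were higher and 5.65% lower, and so were 12 of 18 interferon gamma and GTPase genes. Of 6 receptor genes none was. The chosen enterocyte-like cells shared Ifit1bl1, Apol9a, Rnf213 and Slfn2 among their 12 leading genes and had in addition Apol9b, Ifi47, Ubd, Samd9l, Slc6a14, Slc25a48, Hspa12a and Atf3. Of these, Slc6a14 and Slc25a48 are among the leading genes of enterocyte-like cluster 14, which held 46.3% (WT) and 27.6% (MG53-TG) of the chosen enterocyte-like cells but 28.0% and 15.3% of all cells of the type. Within that cluster Slc6a14 was 1.38-fold (0.921 to 2.02, WT) and 1.21-fold (0.755 to 1.89, MG53-TG) higher in chosen cells, intervals that include 1. Slc25a48 was 1.26-fold (0.846 to 1.82) and 2.24-fold (1.34 to 3.71) higher there, and Ubd 2.78-fold (2.12 to 3.61) and 3.51-fold (2.24 to 5.53), while the held-out members were 1.94-fold and 1.85-fold higher. Ubd, a ubiquitin-like modifier, had 194 CPM in chosen and 45.0 CPM in other WT cells and 223 and 48.9 CPM in MG53-TG.

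The interferons themselves were almost not detected. Of 20 type I and type III ligand genes (Ifna1, Ifna2, Ifna4, Ifna5, Ifna6, Ifna7, Ifna9, Ifna11, Ifna12, Ifna13, Ifna14, Ifna15, Ifna16, Ifnab, Ifnb1, Ifne, Ifnk, Ifnz, Ifnl2 and Ifnl3), 18 had no UMI in any kept cell. Ifne had 1 UMI in WT, and Ifnk had 1 UMI in each library. A count of 0 allows, at 3 counts of the total, up to 0.0283 (WT) and 0.0334 CPM (MG53-TG) in epithelial cells. Ifng, the type II ligand, had no UMI in epithelial cells and 19 (WT) and 13 (MG53-TG) UMIs in T or innate lymphoid-like cells.

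The receptors were detected in both libraries, with a median log2 ratio of 0.20 against 0.58 for the members. Ifnar1 had 16.0 (WT) and 17.9 CPM (MG53-TG, log2 ratio 0.16), and Ifnar2 had 11.6 and 13.5 CPM (0.22). Ifnlr1 had 3.17 and 3.89 CPM (0.30), and its partner Il10rb had 36.8 and 42.6 CPM (0.21). The chains of the interferon gamma receptor, Ifngr1 and Ifngr2, had 98.7 and 114 CPM (0.20) and 62.7 and 66.2 CPM (0.08). None of the 6 was past 1.5-fold. Like the members, Ifnar2 was higher in tuft-like cells (47.8 and 36.5 CPM) than in stem-like cells (8.52 and 10.2 CPM), and Ifnlr1 had 7.77 and 8.71 CPM in enterocyte-like against 1.83 and 2.45 CPM in stem-like cells.

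Of the 15 JAK-STAT and IRF signalling genes, none was past 1.5-fold, and the median log2 ratio was 0.19. The kinases had 54.7 (WT) and 64.2 CPM (MG53-TG, Jak1, log2 ratio 0.23), 30.9 and 35.7 CPM (Jak2, 0.21) and 8.87 and 10.2 CPM (Tyk2, 0.21). Stat3 had 44.3 and 46.6 CPM (0.07). The ratios of these 4 genes were all smaller than those of most members.

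The IRF genes described here gave values from 0.345 to 88.3 CPM. Irf1 had 51.5 (WT) and 63.4 CPM (MG53-TG, log2 ratio 0.30), Irf2 had 68.2 and 77.8 CPM (0.19), and Irf3, which starts interferon transcription, had 30.6 and 33.1 CPM (0.11). Irf5 had 0.50 and 0.345 CPM (-0.54) on 53 and 31 UMIs, and Irf8 had 88.3 and 73.5 CPM (-0.26). The negative regulators were Socs1 (0.905 and 1.06 CPM, 0.22), Socs3 (13.4 and 10.3 CPM, -0.38), Ptpn2 (29.7 and 31.1 CPM, 0.06) and Ptpn6 (38.8 and 52.6 CPM, 0.44). In tuft-like cells Ptpn6 had 1038 and 899 CPM.

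Induced genes outside the member list leaned the same way as the members. Of 42 other type I interferon induced genes with enough UMIs, 13 were past 1.5-fold higher in MG53-TG and none lower, with a median log2 ratio of 0.31. Samd9l had 28.3 (WT) and 47.9 CPM (MG53-TG, 0.76). Within goblet-like cells it had 54.6 and 68.7 CPM, and within enterocyte-like cells 49.1 and 60.2 CPM. Tuft-like cells had 209 and 227 CPM and stem-like cells 7.16 and 9.66 CPM of it, all under 1.5-fold. Oas1g had 2.87 and 6.42 CPM (1.16), and 5.57 and 15.1 CPM in enterocyte-like cells. Of 28 interferon gamma and GTPase genes, 11 were higher and none lower, with a median of 0.32. Iigp1, a GTPase that attacks vacuoles of parasites, had 0.415 and 2.07 CPM (2.32), while Psmb9, an immunoproteasome subunit, had 109 and 112 CPM (0.05). Of 12 sensing genes upstream of interferon, only Samhd1 was past 1.5-fold higher (71.4 and 110 CPM) and none lower, with a median of 0.16, and 1 of 12 is a share close to that of all genes. Within types Samhd1 had 193 (WT) and 217 CPM (MG53-TG) in goblet-like, 52.4 and 71.3 CPM in enterocyte-like, 25.2 and 33.5 CPM in stem-like and 48.6 and 53.5 CPM in tuft-like cells, all under 1.5-fold, and among the 8 named types it was past that bound in cycling-like cells alone (log2 ratio 1.0). The background for each of these counts is that of all epithelial cells given above.

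RNA outside cells was measured in WT, where barcodes of 1 to 100 UMIs were listed. In them the 31-member sum was 671 CPM (650 to 691), which is 1.37 times that of the WT epithelial cells as a whole. It was above that of WT stem-like, cycling-like, absorptive progenitor-like, enteroendocrine-like and Paneth-like cells. It was close to that of goblet-like cells (695 CPM, 683.9 to 706.5) and below that of enterocyte-like and tuft-like cells. Ifitm3 was lower outside cells than in them (72.8 CPM, 0.474 times), and Trim30a was higher (10.7 CPM, 4.39 times). The MG53-TG table started at 500 UMIs, so the same measurement was not made there, and the part of free RNA in the difference between the libraries was not tested.

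Markers of other cells differed between the libraries in the epithelial sums. The 11 T or innate lymphoid markers summed to 52.7 (WT) and 25.6 CPM (MG53-TG), all 11 detected in both. The 5 erythroid markers (hemoglobin genes and Alas2) summed to 306 (WT) and 0.545 CPM (MG53-TG). The 8 B or plasma markers summed to 12.3 and 7.17 CPM and the 10 stromal or endothelial markers to 1.03 and 1.20 CPM, with 6 of the 10 at 0. The 10 myeloid markers summed to 7.03 and 4.95 CPM, with 3 (WT) and 2 (MG53-TG) of them at 0. The 7 plasmacytoid dendritic markers other than the member Bst2 summed to 407 and 606 CPM, with 1 (WT) and 0 (MG53-TG) of them at 0. Most of that was Klk1, with 292 and 504 CPM in epithelial cells, and with 1437 and 1466 CPM in goblet-like cluster 0, where it is a leading gene, while Siglech, the defining marker, had 0 (WT) and 0.0222 CPM (MG53-TG). The part of any of these in the members' values was not tested. Bst2, also a marker of plasmacytoid dendritic cells, had 2839 CPM in the 9 plasmacytoid dendritic-like cells of WT and 2265 CPM in the 6 of MG53-TG. In T or innate lymphoid-like cells the 31-member sum was 768 (WT) and 920 CPM (MG53-TG).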

How the data were processed

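Droplet libraries (10x Genomics 3′, version 3) were analysed from the counts deposited by the authors, whole-number UMI counts per gene and barcode that were not normalized. Per the file headers, the WT table came from Cell Ranger 4 and the MG53-TG table from version 6.0.1, and the submitters' processing notes name Seurat and mm10. The aligner's settings are not given in the sources used here.

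Barcodes below 1354 UMIs or 200 genes, or above 25% mitochondrial UMIs, were removed. Doublets were removed by the highest scores, at 0.8% per 1000 cells (438 WT and 212 MG53-TG cells). Cells were clustered with scanpy on 2000 variable genes, 30 components and 15 neighbours (Leiden, resolution 1), leaving out the members and the other interferon lists. This gave 25 clusters. A cluster was named X-like from at least 3 markers of a list, and 2 clusters stayed unnamed.

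A level (CPM) is a gene's summed UMIs per 1000000 UMIs of the cells it was summed over. Ratios were given for genes with at least 30 UMIs over both libraries, with exact conditional binomial intervals, UMI sums with exact Poisson and shares with Clopper-Pearson intervals. With 1 library per genotype, no test was made. Medians used a pseudocount of 1 CPM, and the fold for a call was 1.5. Cells were thinned to 1354 UMIs for shares and for choosing cells. The scripts were tested on simulated data. Every member with at least 100 epithelial UMIs, every receptor and signalling gene with UMIs, and the 12 outside genes with the highest smaller-of-both ratio were named. Results for 2 of these genes are not reported here. The members and lists were chosen with earlier results of these data known. Alternatives were other filters, doublets kept, clustering with all variable genes, types from marker scores, other scalings, bounds, pseudocounts, gates and thinning depths.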

Additional observations from a re-analysis of the deposited data

Results flagged for a closer look

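The difference between the libraries took opposite directions in pairs of epithelial types for 3 members, with counting intervals on opposite sides of 0. The difference between the types was not tested, since each type of each genotype comes from 1 library. Irf7 had a log2 ratio of 0.61 (MG53-TG over WT, interval 0.17 to 1.05) in cycling-like cells, on 85 and 93 UMIs, and of -0.86 (-1.41 to -0.34) in Paneth-like cells, on 155 and 38 UMIs. Ifitm3 had 0.34 (0.18 to 0.50) in Paneth-like cells and -0.22 (-0.37 to -0.08) in absorptive progenitor-like cells. Lgals3bp had 0.31 (0.18 to 0.44) in enterocyte-like cells and -0.40 (-0.67 to -0.13) in Paneth-like cells.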

How the results depend on the processing

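No paired analysis was possible because there was 1 library per genotype, and no replicate could be left out for the same reason. None of the summary values listed in this section changed direction. The count of members past 1.5-fold lower over all epithelial cells was 0 in every alternative. Within types, the tuft-like 31-member sum did change direction among cells with no UMI of the 11 T-cell markers. Under median-of-ratios scaling, Stat2 changed sign in stem-like cells, and Ifih1, Bst2 and Parp9 in absorptive progenitor-like cells. Oasl1 and Ifi35 did so in tuft-like cells, and Oasl1 and Irf7 in goblet-like cells. The log2 ratio of the summed members, 0.35 as reported, was 0.41 with a mitochondrial limit of 50%, 0.32 from the mean of single-cell CPM, 0.26 with median-of-ratios scaling, 0.29 without the chosen cells and 0.21 with equal weight for each type. The median over members, 0.58, was 0.47 from single-cell CPM, 0.49 with median-of-ratios scaling, 0.49 without the chosen cells, 0.30 with equal weights and 0.44 with a pseudocount of 5 CPM. The values without the chosen cells still count the 17 genes that chose those cells, so no conclusion is drawn from them. The count of 18 higher members was 9 with equal weights, where 4.14% of all genes were higher. At 2-fold the count was 6, but the share of all genes past that bound was not counted. The difference of 2.48 points in cells with 5 or more members was 5.46 for at least 3 members, 0.764 for at least 8, 15.4 unthinned and 11.6 thinned to 5000 UMIs, which left out 863 WT and 433 MG53-TG cells. It ranged from 2.29 to 3.18 over 20 thinnings. In the alternatives added after seeing the data, the summed ratio was 0.55 without Ifitm3 and Lgals3bp and 0.31 without enterocyte-like cells, and the difference in shares 1.45 points without enterocyte-like cells. The held-out log2 ratio in goblet-like cells, 2.19 (WT) and 1.71 (MG53-TG), was 1.26 and 1.17 with a gate of 2 genes, 2.54 and 2.03 with 4, 1.07 and 1.20 with an unthinned gate of 6, and 1.89 (WT) when the 16 genes chose the cells and the 17 were compared. Causes of these shifts were not tested. Some members rest on few UMIs, such as Ifit2 on 88 and 129 UMIs.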

Other observations

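Members were also detected in cells that are not epithelial. The 31-member sum was 3340 CPM in the 9 plasmacytoid dendritic-like cells of WT and 4229 CPM in the 6 of MG53-TG, but Bst2, which is also a marker of that lineage, made up 102 of the 120 UMIs in WT and 128 of the 239 in MG53-TG. Without Bst2 the sum of the other 30 was 501 CPM (297 to 792) in WT, under that of goblet-like, tuft-like and enterocyte-like cells (653, 1104 and 1334 CPM), and 1964 CPM (1616 to 2365) in MG53-TG. Irf8, a factor of that lineage, had 3284 and 2530 CPM there. The unnamed lymphoid cluster, led by Cd8b1, had 1053 and 1076 CPM, and the 17 myeloid-like cells, all from WT, had 671 CPM. The unnamed epithelial cluster, led by Retnlb and Rnase1, had 364 and 468 CPM, between stem-like and absorptive progenitor-like cells.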
